A study of Arabidopsis thaliana with 6 samples.

Results

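Proanthocyanidins, the condensed tannins that brown the Arabidopsis seed coat, are made in its innermost layer, the endothelium, under the control of a small set of transcription factors. The 7 genes described here encode these regulators: TT2, TT8, TTG1, EGL3, TT1, TT16 and TTG2. They were chosen by locus identifier from a table of 16967 genes, and all 7 were in it. The samples were seeds of Arabidopsis thaliana at 8 days after pollination, of the wild type Col-0 (3 samples) and of tt7-7 (3 samples), a mutant of flavonoid 3'-hydroxylase, and the labels give the accession Col-0 for both genotypes. Messenger RNA was quantified by RNA sequencing of total seed RNA as RPKM, reads scaled to gene length and to the size of the library. The nature of the tt7-7 lesion, the number of plants per sample and whether the samples came from separate plants are not given in the labels, and the p-values measure the spread between these samples, which may be technical.

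In the endothelium an R2R3-type MYB protein (TT2), a bHLH protein (TT8) and a WD40 repeat protein (TTG1) form a ternary complex that switches on the late genes of tannin synthesis. EGL3 is a bHLH protein related to TT8 that joins TTG1, for example in cells forming trichomes and anthocyanin. TT16, a MADS domain protein of the B-sister class, and TT1, a zinc finger protein of the WIP family, are needed for the endothelium to form and to colour normally. TTG2 is a WRKY protein that acts downstream of TTG1 in trichomes and seed coat.

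TT8 and TTG2 are known to be activated by complexes of this kind, as is BAN, the gene of anthocyanidin reductase. The 250 bases before the annotated gene start are shown for these 3 genes, and for TT16, whose window held none of the motifs searched. Sequences are from RefSeq assembly TAIR10.1, 5′ to 3′ on the strand of the gene, with motif matches in capitals.
TT8, chr4:6181631-6181880, plus strand: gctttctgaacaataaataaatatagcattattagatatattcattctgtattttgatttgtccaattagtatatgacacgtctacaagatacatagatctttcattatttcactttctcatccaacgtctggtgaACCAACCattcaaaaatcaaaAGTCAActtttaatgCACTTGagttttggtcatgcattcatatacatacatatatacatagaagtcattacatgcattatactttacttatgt
TTG2, chr2:15644561-15644810, plus strand: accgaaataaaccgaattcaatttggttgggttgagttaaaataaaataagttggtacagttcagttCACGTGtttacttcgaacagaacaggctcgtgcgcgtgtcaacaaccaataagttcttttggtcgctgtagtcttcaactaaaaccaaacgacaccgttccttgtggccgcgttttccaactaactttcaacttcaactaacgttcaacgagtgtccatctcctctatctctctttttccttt
BAN, chr1:22792804-22793053, minus strand: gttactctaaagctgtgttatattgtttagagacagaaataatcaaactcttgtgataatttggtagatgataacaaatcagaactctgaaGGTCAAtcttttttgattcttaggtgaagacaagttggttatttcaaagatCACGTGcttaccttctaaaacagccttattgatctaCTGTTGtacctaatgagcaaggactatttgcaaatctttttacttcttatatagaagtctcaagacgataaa
TT16, chr5:7835715-7835964, plus strand: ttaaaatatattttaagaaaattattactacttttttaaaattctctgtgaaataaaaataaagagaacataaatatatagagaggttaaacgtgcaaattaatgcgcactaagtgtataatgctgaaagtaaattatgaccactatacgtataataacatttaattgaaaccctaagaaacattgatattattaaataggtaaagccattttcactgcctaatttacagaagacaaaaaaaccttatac

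The motifs, searched on both strands, were the E-box CANNTG, the G-box CACGTG (which is also an E-box), the MYB core CNGTTA or CNGTTG, the AC element (ACCTACC, the variant ACCAACC or the variant ACCTAAC), and the W-box TTGACC or TTGACT, the sequence that WRKY proteins bind. In the TT8 window an AC element began 114 bases, a W-box 93 bases and an E-box 78 bases before the gene start. In the TTG2 window the G-box began 183 bases before the start. In the BAN window a W-box began 159, a G-box 108 and a MYB core 72 bases before it. An E-box was present in 5 of the 7 regulator windows and in 55.3% of the 27443 windows of protein-coding genes, an AC element in 1 of 7 and in 6.12%, a W-box in 2 of 7 and in 28.4%, and a G-box in 1 of 7 and in 6.49%. The MYB core was in 0 of the 7 regulator windows, in 4 of 6 windows of target genes and in 40.7% of all windows. Of the same 6 target windows 5 held a W-box, 4 an E-box, 2 a G-box and 0 an AC element. The MYB core of LDOX, 155 bases before its start, overlapped a W-box at 152. These are matches of letters in short windows and not measured binding sites.

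Libraries held 13677094 to 20547689 reads, recovered from the steps of the RPKM values. The mutated gene was examined as a check of the labels. The level of TT7 (AT5G07990) was 499, 272 and 240 RPKM in Col-0 seeds, listed here and throughout in replicate order, and 86.0, 97.4 and 103 RPKM in the tt7-7 samples, so all libraries labelled tt7-7 were below those labelled Col-0. Over all genes the tt7-7 samples had the higher RPKM for most genes, with a median log2 fold change of 0.44, and of the 16663 tested genes 59.6% were called (limma adjusted p under 0.05), 51.1% higher in tt7-7 and 8.47% lower. A regulator near 0.44 therefore changed as much as the median gene. Col-0 replicate 3 stood apart in its embryo transcripts: 10 storage protein and oleosin genes took 13.6% of its reads, against 1.97% and 4.18% in Col-0 replicates 1 and 2 and 0.394%, 0.0890% and 0.601% in tt7-7 replicates 1 to 3.

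All 7 regulators were called higher in tt7-7, against the background of 51.1% of all tested genes, but they divided by size of change. Of the 7, TT2, TT8, TT1, TT16 and TTG2 had a log2 fold change of at least 1, as had 17.9% of all tested genes among those called higher. The same 5 were called higher under median-ratio scaling, against 26.3% of all genes, and under quantile normalization, against 26.8%. TT1 and TT16, at 0.892 and 1.26 RPKM in Col-0 replicate 3, met the deposited minimum of 2 RPKM only through tt7-7. That filter favoured higher values in tt7-7 for these genes, so their part in the counts is not independent of it. TT16, TT1 and TT2 had group means 5.07 to 6.24 times those of Col-0, TT8 3.08 times and TTG2 2.21 times. TTG1 and EGL3, at 1.29 and 1.51 times, lay near the median gene, and their direction turned under other scalings (TTG1 under median-ratio scaling, EGL3 under quantile normalization). In whole seeds, a larger share of cells of a type and more RNA per cell cannot be told apart. The 3 tt7-7 values lay above the 3 Col-0 values for each of the 7 genes, as they did for 56.2% of all tested genes (66.2% had groups apart in either direction). The exact permutation test over samples, two-sided, gave 0.1 for each, which is the smallest p that 3 against 3 allow.

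**Figure D1:**
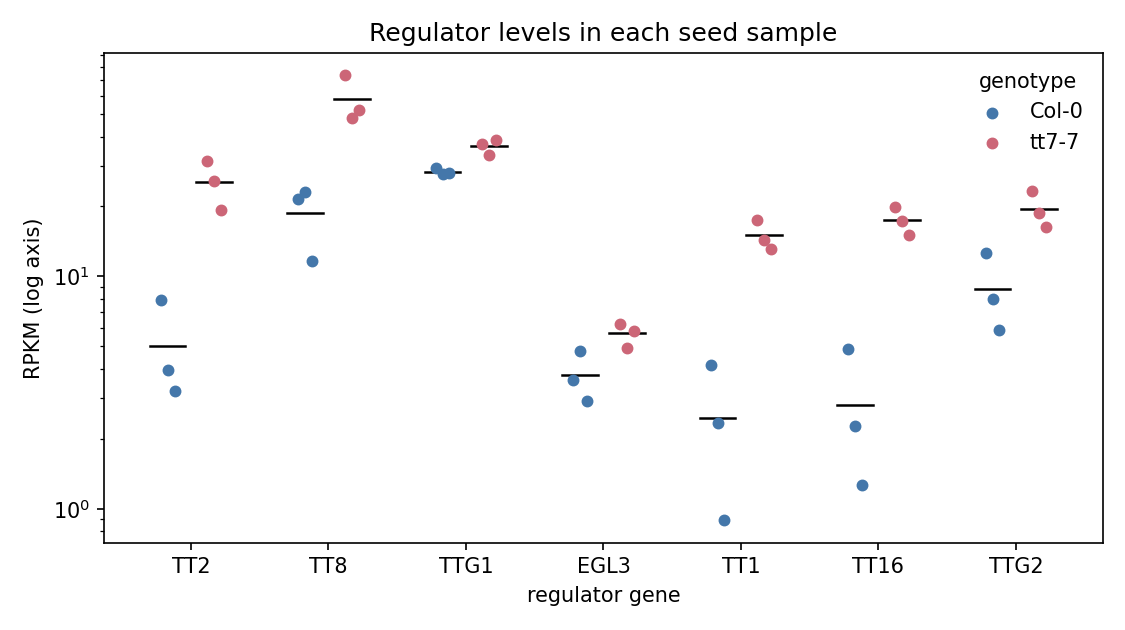
RPKM on a log axis of the 7 regulators in each seed sample, with 1 point per sample and a bar at the mean of 3. TT2, TT8, TT1, TT16 and TTG2 were separated clearly between Col-0 and tt7-7, whereas TTG1 and EGL3 lay close together.

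TTG1 (AT5G24520, chromosome 5, 8370317 to 8372847, minus strand, 2 exons in its longest transcript) is the WD40 scaffold shared by the complexes. It was at 29.3, 27.6 and 27.7 RPKM in Col-0 seeds and at 37.0, 33.2 and 38.6 RPKM in tt7-7. The groups did not overlap, and the lowest tt7-7 value was 1.13 times the highest Col-0 value. TTG1 was the steadiest of the 7 genes, with an SD of 3.38% of the mean in Col-0 and 7.76% in tt7-7. Its log2 fold change was 0.35 (SE 0.12, limma adjusted p 0.0352), and 44.1% of all tested genes had a smaller one. The call was lost under median-ratio scaling, where the value was -0.155 (adjusted p 0.254), and in 5 of the 6 fits that left out a sample, with adjusted p up to 0.117.

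TT2 (AT5G35550, chromosome 5, 13726743 to 13727961, plus strand, 2 exons), the MYB protein that gives the complex its specificity for tannin genes, was at 7.90, 3.96 and 3.21 RPKM in Col-0 seeds. In tt7-7 it was at 31.3, 25.8 and 19.3 RPKM. The lowest tt7-7 value was 2.44 times the highest Col-0 value. The means were 5.02 ± 2.52 and 25.5 ± 6.01 RPKM (SD, n = 3 per group), and the log2 fold change was 2.19 (SE 0.28, limma adjusted p 0.000272). Its change exceeded that of 99.2% of tested genes.

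TT8 (AT4G09820, chromosome 4, 6181881 to 6186523, plus strand, 7 exons), the bHLH partner, was at 21.6, 23.1 and 11.6 RPKM in Col-0 seeds and at 73.4, 47.9 and 52.1 RPKM in tt7-7. Col-0 replicate 3 was the low sample of its group and tt7-7 replicate 1 the high sample of the other, and the lowest tt7-7 value was 2.08 times the highest Col-0 value. The means were 18.8 ± 6.23 and 57.8 ± 13.7 RPKM (SD, n = 3 per group), and the log2 fold change was 1.61 (SE 0.26, limma adjusted p 0.000800). TT8 was the regulator with the most reads, 450 to 888 per Col-0 library and 1936 to 2293 per tt7-7 library, apart from TTG1 in Col-0 with 690 to 1102.

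EGL3 (AT1G63650, chromosome 1, 23599413 to 23603164, plus strand, 7 exons) was at 3.57, 4.79 and 2.90 RPKM in Col-0 seeds and at 6.27, 4.94 and 5.85 RPKM in tt7-7. The lowest tt7-7 sample exceeded the highest Col-0 sample by a factor of only 1.03. The log2 fold change was 0.51 (SE 0.18, limma adjusted p 0.0330), larger than that of 54.6% of tested genes. It was -0.067 under quantile normalization (adjusted p 0.767) and 0.082 under median-ratio scaling (adjusted p 0.697). The call was also lost with the length trend removed (0.24, adjusted p 0.258), and 2 of the 6 fits without a sample kept the call, with adjusted p up to 0.103. TT8 made up 85.8%, 82.8% and 80.0% of the summed RPKM of TT8 and EGL3 in Col-0 seeds and 92.1%, 90.6% and 89.9% in tt7-7. The share was 82.9 ± 2.89% in Col-0 and 90.9 ± 1.14% in tt7-7 (SD, n = 3 per group), with groups that did not overlap (exact permutation p 0.1, two-sided).

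TT16 (AT5G23260, chromosome 5, 7835965 to 7838555, plus strand, 7 exons) was at 4.86, 2.27 and 1.26 RPKM in Col-0 seeds and at 19.9, 17.4 and 15.1 RPKM in tt7-7. The means of 2.80 ± 1.86 and 17.5 ± 2.39 RPKM (SD, n = 3 per group) gave a log2 fold change of 2.39 (SE 0.30, limma adjusted p 0.000256), the largest of the 7 genes in the main fit. TT1 (AT1G34790, chromosome 1, 12763902 to 12765686, plus strand, 2 exons) was at 4.15, 2.33 and 0.892 RPKM in Col-0 seeds and at 17.5, 14.4 and 13.1 RPKM in tt7-7. For both genes all tt7-7 samples were at least 3.11 times the highest Col-0 sample. TT1 changed by 2.32 (SE 0.31, limma adjusted p 0.000351). The TT1 value in Col-0 replicate 3 rested on 20 reads, for which the exact 95% Poisson interval, covering counting error only, was 0.545 to 1.38 RPKM. Both genes were below 2 RPKM in that sample and so met the deposited table's minimum only through tt7-7.

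TTG2 (AT2G37260, chromosome 2, 15644811 to 15647076, plus strand, 5 exons) was at 12.6, 8.04 and 5.85 RPKM in Col-0 seeds and at 23.2, 18.8 and 16.3 RPKM in tt7-7. The lowest tt7-7 sample was 1.30 times the highest Col-0 sample. The means were 8.82 ± 3.42 and 19.5 ± 3.51 RPKM (SD, n = 3 per group), and the log2 fold change was 1.10 (SE 0.24, limma adjusted p 0.00390), larger than that of 86.1% of tested genes. Under median-ratio scaling it was 0.63 (adjusted p 0.0376).

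**Figure D2:**
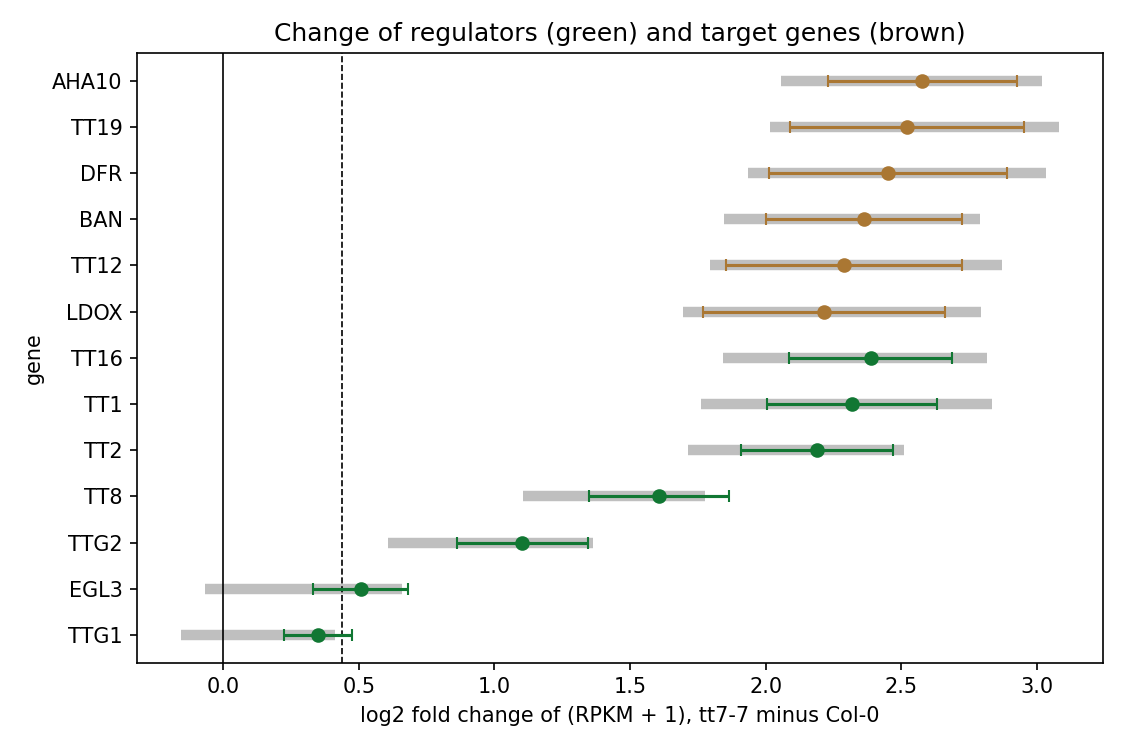
Log2 fold change of RPKM + 1, tt7-7 minus Col-0, with the standard error as whiskers, for the 7 regulators and 6 target genes. Grey bars span the values over the alternative settings and the dashed line marks the median of all tested genes at 0.44. TT2, TT8, TT1, TT16 and TTG2 lay to the right of that line, and the grey bars of TTG1 and EGL3 crossed 0, with a direction that turned under median-ratio scaling for TTG1 and under quantile normalization for EGL3.

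The order of the levels differed between the genotypes. In Col-0 TTG1 was highest at 28.2 ± 0.952 RPKM (SD, n = 3), followed by TT8, TTG2, TT2, EGL3, TT16 and TT1, and each neighbouring pair below TTG1 overlapped in range. In tt7-7 TT8 was highest, above TTG1 in 3 of 3 samples, followed by TT2, TTG2, TT16, TT1 and EGL3. There the ranges of TT2, TTG2, TT16 and TT1 overlapped with their neighbours in the order, whereas EGL3 at 5.69 ± 0.679 RPKM (SD, n = 3) was separated from TT1 above it.

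RPKM ratios of regulators within a library do not depend on how libraries were scaled to each other. The log2 ratios were taken of RPKM + 1, and the added 1 leaves them some dependence on scaling. Of the 21 pairs 13 had log2 ratios that did not overlap between the genotypes. The share over all pairs of tested genes was 60.8%, close to that of the regulators, so the count is no feature of these genes. With 3 samples against 3 the exact permutation p of these pairs was 0.1 (two-sided), the smallest possible, and 0.162 after Benjamini-Hochberg adjustment over the 21 pairs, so no pair could pass 0.05. The RPKM of TT2 relative to TTG1 was 0.270, 0.144 and 0.116 in Col-0 seeds and 0.846, 0.777 and 0.4996 in tt7-7. The log2 ratio of TT2 + 1 to TTG1 + 1 was -2.36 ± 0.52 in Col-0 and -0.52 ± 0.39 in tt7-7 (SD, n = 3), without overlap. TT8 relative to TTG1 was 0.736, 0.838 and 0.419 in Col-0 and 1.98, 1.44 and 1.35 in tt7-7. Thus TTG1 transcript exceeded TT8 transcript in the Col-0 samples and was below it in the tt7-7 samples.

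For other pairs the groups overlapped. TT1 relative to TT16 was 0.854, 1.03 and 0.706 in Col-0 and 0.881, 0.826 and 0.867 in tt7-7, and the log2 ratios differed by -0.069 (exact permutation p 0.6, two-sided). TT2 relative to TT1 and TT2 relative to TT16 also overlapped, with differences of -0.13 and -0.20. TT2 relative to TT8 was 0.366, 0.171 and 0.276 in Col-0 and 0.426, 0.538 and 0.371 in tt7-7. Its groups overlapped, and the difference of 0.58 had an exact permutation p of 0.2 (two-sided). TTG1 relative to EGL3 differed by -0.16 with overlapping groups. With so few samples a ratio that was not separated is not shown to be equal.

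**Figure D3:**
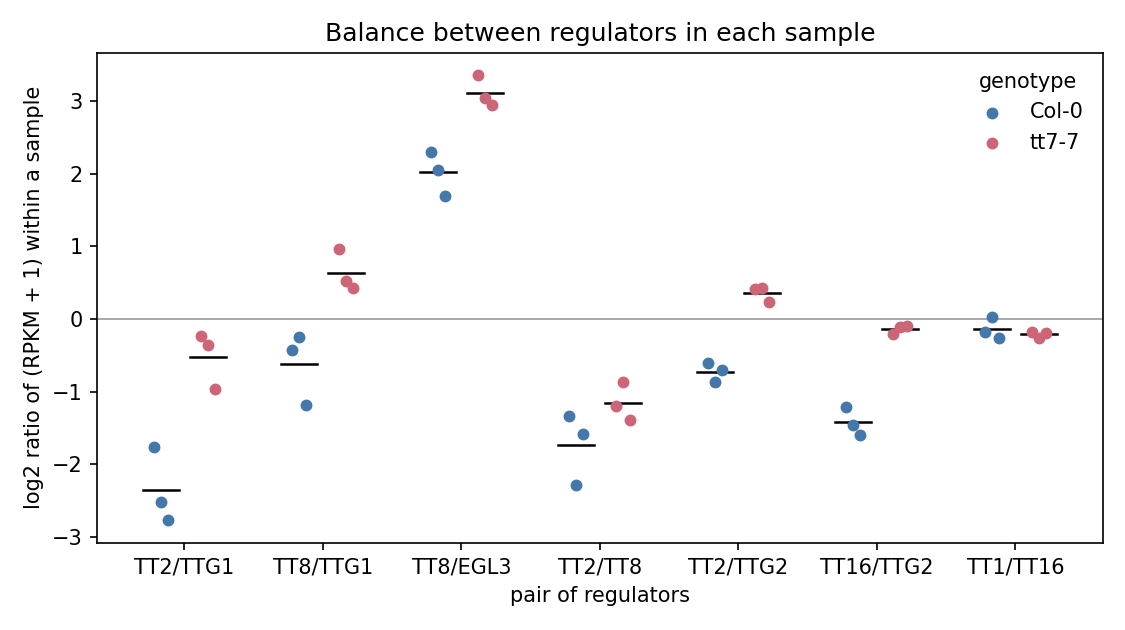
Log2 ratio of RPKM + 1 between pairs of regulators within each sample, with 1 point per sample and a bar at the mean of 3. TT2/TTG1, TT8/TTG1, TT8/EGL3, TT2/TTG2 and TT16/TTG2 did not overlap between Col-0 and tt7-7, whereas TT2/TT8 and TT1/TT16 did.

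Within Col-0 the regulators were less even than within tt7-7, with TTG1 as the exception. The highest Col-0 sample was 4.66 times the lowest for TT1, 3.85 times for TT16, 2.46 times for TT2, 2.15 times for TTG2, 1.99 times for TT8, 1.65 times for EGL3 and 1.06 times for TTG1. In tt7-7 the same factor was 1.62 or less for each of the 7 genes, and 1.17 for TTG1. Col-0 replicate 3 was the lowest Col-0 sample for 6 of the 7 genes (all but TTG1) and was also the sample with 13.6% of its reads in storage protein and oleosin genes. The median RPKM over all genes was lowest there too, at 8.91 against 10.7 and 9.67 in Col-0 replicates 1 and 2. Without Col-0 replicate 3 the log2 fold changes were 1.97 for TT2, 1.31 for TT8, 1.94 for TT1, 2.07 for TT16 and 0.87 for TTG2. These 5 genes were still called higher, as were 7462 of all 16663 tested genes. The part of the embryo transcripts in the regulators' differences was not tested.

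The 6 late genes known to be activated by the TT2, TT8 and TTG1 complex were examined beside the regulators, from a list that left out TT8 and TTG2. All 6 were called higher, against 51.1% of all tested genes, and their median log2 fold change was 2.41 against 0.44 for all tested genes. BAN, whose enzyme makes the epicatechin unit of tannins, was at 127, 67.3 and 39.8 RPKM in Col-0 seeds and at 427, 397 and 285 RPKM in tt7-7. DFR (dihydroflavonol reductase) was at 193, 71.3 and 45.9 RPKM in Col-0 seeds and at 583, 483 and 380 RPKM in tt7-7, a log2 fold change of 2.45 (SE 0.44, limma adjusted p 0.00135). Both had their highest value of each group in replicate 1 and their lowest in replicate 3, as had TT2, TT1, TT16 and TTG2. LDOX (anthocyanidin synthase) changed by 2.21, TT19 (a glutathione transferase needed for flavonoid transport) by 2.52, TT12 (the vacuolar transporter of tannin precursors) by 2.29 and AHA10 (a proton pump) by 2.58. AHA10, at 5.96, 2.21 and 1.42 RPKM in Col-0, met the deposited minimum of 2 RPKM only through tt7-7.

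Relatives and other partners of the regulators were less uniform. Of 12 other MYB, bHLH and WD40 genes of such complexes or close to them 3 were tested. The other 9, among them MYB5 and GL3, were absent from the deposited table, which holds only genes above its minimum. LWD1 (AT1G12910), a WD40 relative of TTG1 that acts in the circadian clock, was lower in tt7-7, at 39.8 ± 3.14 RPKM in Col-0 seeds and 24.7 ± 2.36 RPKM in tt7-7 (SD, n = 3), a log2 fold change of -0.67 (limma adjusted p 0.00235) that was -1.17 under median-ratio scaling. The related LWD2 at -0.40 and the bHLH gene MYC1 at -0.18 were not called, but both were called lower under quantile normalization, at -0.95 (adjusted p 0.00302) and -0.73 (adjusted p 0.0275). Of the 3 flavonol MYB genes, which act without a bHLH partner, MYB11 rose by 2.15 (limma adjusted p 0.000452). MYB12 was at 0.68 with overlapping groups (limma adjusted p 0.0529) and MYB111 was absent from the deposited table. The 5 listed WIP relatives of TT1 were absent from it too.

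Of 9 genes that restrain such complexes 5 were tested. Of these, 2 were called higher and 0 lower, against 51.1% and 8.47% of all tested genes. UPL3 (AT4G38600), a ubiquitin ligase that targets GL3 and EGL3 protein for degradation, was at 9.55, 7.09 and 6.90 RPKM in Col-0 seeds and at 28.9, 35.8 and 24.1 RPKM in tt7-7, a log2 fold change of 1.79 (SE 0.18, limma adjusted p 0.000125). With the trend on gene length removed its change was 0.66 (adjusted p 0.00351). CPC, a small MYB protein that competes for the bHLH partner, changed by 1.07 (limma adjusted p 0.0186), but it met the deposited minimum only through tt7-7, its groups overlapped and the call was lost under median-ratio scaling (0.69), under quantile normalization (0.47) and on leaving out Col-0 replicate 3 (0.92) or tt7-7 replicate 1 (0.77). MYBL2, a MYB repressor of the pathway, was at 69.0 ± 12.7 RPKM in Col-0 seeds and 61.2 ± 13.6 RPKM in tt7-7 (SD, n = 3) and was not called, although it was under median-ratio scaling, at -0.69 (adjusted p 0.0146). TRY and ETC3 were not called either. TRY was, however, called lower under median-ratio scaling (-0.54, adjusted p 0.0184) and quantile normalization (-0.55, adjusted p 0.0167).

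Of 8 MADS box genes of ovule and seed coat, which are relatives of TT16, 7 were tested, of which 6 were called higher (51.1% of all tested genes were), 0 lower and 1 not at all. Their median log2 fold change was 1.05, against 0.44 for all tested genes. SHP1 changed by 1.44, SEP2 by 0.96 and SEP1 by 0.86, each with groups that did not overlap, and under median-ratio scaling by 0.95, 0.45 and 0.35, where they were still called. STK, known as a repressor of BAN and named here after its values were seen, was at 41.8, 28.6 and 26.5 RPKM in Col-0 seeds and at 77.8, 74.3 and 58.7 RPKM in tt7-7, a log2 fold change of 1.11 (limma adjusted p 0.00116) that was 0.60 under median-ratio scaling (adjusted p 0.0149). SEP3 was at -0.22 and was not called, but it was called lower under median-ratio scaling, at -0.73 (adjusted p 0.00261).

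Markers of other seed tissues moved in different directions. Their counts of calls stand against 51.1% of all tested genes called higher and 8.47% called lower. The 9 seed coat epidermis genes, all measured, summed to 1558 to 2269 RPKM in Col-0 seeds and 1577 to 1941 RPKM in tt7-7, with 2 called higher, FLY1 at 0.60 and CESA5 at 0.52, and a median log2 fold change of 0.066. Both calls were lost under median-ratio scaling (0.087 and 0.012). That of CESA5 was also lost when libraries were scaled outside the 100 highest genes (0.30), under quantile normalization (0.27) and without tt7-7 replicate 3 (0.50), and its direction turned with the length trend removed (-0.187). SBT1.7, which made up most of each sum at 937 to 1564 RPKM, was called lower under median-ratio scaling (-0.89, adjusted p 0.00694). So were PMEI6 (-0.77), PER36 (-0.53), MUM4 (-0.52) and GAUT11 (-0.43), as were 4596 of all 16663 tested genes. GL2 and MUM2 were not called there. The 6 targets of the complex summed to 143 to 588 RPKM in Col-0 seeds and 1192 to 1673 RPKM in tt7-7. Of 9 endosperm genes 4 were tested, with sums of 22.9 to 52.9 and 55.7 to 68.7 RPKM, and FIS2 (1.43) and FWA (1.42) were called higher. Both met the deposited minimum only through tt7-7, FIS2 was at 0.83 under quantile normalization and still called, and the call of FWA was lost there (0.85, adjusted p 0.0743). The 10 embryo storage genes were all called lower, among them CRB at -4.83, SESA4 at -4.15 and OLEO2 at -2.64. When a sample was left out all 3 were still called, although the sizes moved. Leaving out Col-0 replicate 1 gave -5.61 for CRB and -4.73 for SESA4. The smallest changes were -3.91 for CRB, on leaving out Col-0 replicate 3, and -3.37 for SESA4, on leaving out tt7-7 replicate 2. Of 5 flower and pollen markers 3 were tested, with sums of 44.8 to 60.2 RPKM in Col-0 seeds and 115 to 166 RPKM in tt7-7. AP3, a MADS box gene of petals and stamens, was called higher, at 31.4 to 47.8 RPKM in Col-0 and 99.3 to 141 RPKM in tt7-7, and made up most of the sum. The pollen gene VGD1 was called higher at 0.79, a call that was lost under median-ratio scaling (0.32) and quantile normalization (0.27). The pollen gene PPME1 was at -0.37 and was not called, but was called lower under quantile normalization (-0.94, adjusted p 0.0251) and median-ratio scaling (-0.79, adjusted p 0.0342). The part of these tissues in the regulators' differences was not tested.

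**Figure D4:**
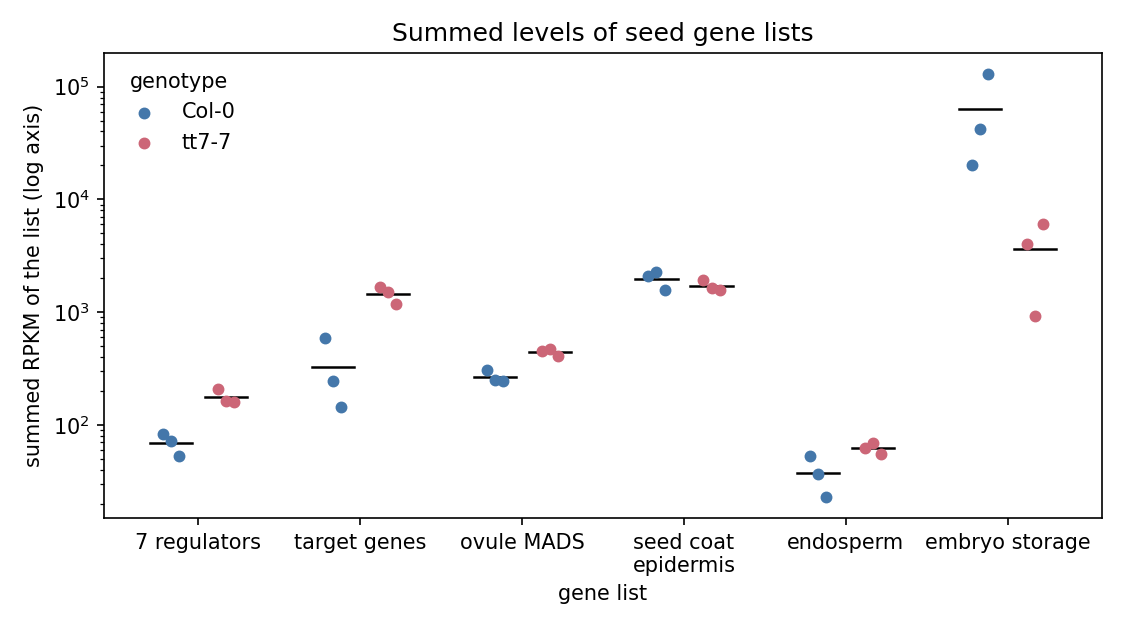
Summed RPKM on a log axis of 6 gene lists in each sample, with 1 point per sample and a bar at the mean of 3. The sums of the 7 regulators and of the target, ovule MADS and endosperm genes were higher in each tt7-7 sample than in any Col-0 sample. Those of the embryo storage genes were lower, and those of the seed coat epidermis genes overlapped.

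The likeness of each regulator to other genes was described by Pearson's r of log2(RPKM + 1) over the 6 samples, among 13528 genes with a mean of at least 5 RPKM. The points share the difference between the genotypes, so high values were common: 4170 genes had r of at least 0.95 with TT16, 3976 with TT1 and 3636 with TT2, against 550 with TTG1 and 121 with EGL3. The gene most like TT2 was AT3G13290 (VCR, r 0.999), that most like TT8 was AT1G09753 (r 0.998) and that most like TTG1 was AT1G64585 (RTFL22, r 0.999). EGL3 was most like AT5G48290 (r 0.994), TT1 most like AT1G24540 (CYP86C1, r 0.999), TT16 most like AT1G79650 (RAD23B, r 0.9999) and TTG2 most like AT5G65160 (TPR14, r 0.999).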

How the data were processed

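The authors deposited 1 table of RPKM values, written with decimal commas, for 16967 genes in 6 samples. Each gene in it exceeded 2 RPKM in every sample of 1 genotype or of both. Per the submitters' processing notes, cutadapt, FastQC, HISAT2, HTSeq and DESeq2 were used with build TAIR10, while strandedness is not given in the sources used here. No gene annotated in RefSeq TAIR10.1 overlapped a regulator (0 for each of the 7). With the longest RefSeq transcript as length, reads came out whole within 0.02 for 99.3% of genes and for all 7 regulators.

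Samples were grouped by title. The fit was limma 3.58.1 (R 4.3.3) with an intensity trend on log2(RPKM + 1), for 16663 genes with a mean of at least 2 RPKM, two-sided, with Benjamini-Hochberg adjustment over all of them. Fold changes on this scale understate changes of low genes. The fit and the read recovery were tested on simulated data, in which equal numbers of genes were raised and lowered. Library totals in the simulation were those recovered here. It held no general shift between groups, so it did not test the fit under the shift seen in these data. Single values were compared by exact permutation (Python 3.11.15, scipy 1.17.1). The alternatives were other pseudocounts, filters and scalings, voom on recovered reads, removal of trends on gene length or GC content, no intensity trend, a replicate block, and each sample left out.

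The members and lists were chosen with earlier results of these data known. Named genes were the 7 regulators, TT7, the targets and flavonol MYB genes, up to 3 called genes per other list in order of p, and the most similar gene per regulator. LWD2, MYC1, MYBL2, TRY, ETC3, SEP3, PPME1 and STK were named after their values were seen. So were the epidermis genes SBT1.7, PMEI6, PER36, MUM4, GAUT11, GL2 and MUM2.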

Additional observations from a re-analysis of the deposited data

How the results depend on the processing

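TT2, TT8, TT16 and TTG2 kept direction and call in all 18 alternatives and TT1 in the 17 in which it was tested. The calls of TTG1 and EGL3 were lost under median-ratio scaling, quantile normalization and scaling outside the 100 highest genes, so 5 regulators were called there. Of all 16663 tested genes 4389, 4468 and 6812 were called higher in these settings. When a sample was left out 5 or 6 regulators were called higher, against 7292 to 9100 of the 16663 tested genes. EGL3 was also lost with the length trend removed, leaving 6, against 8095 of 16554 tested genes called higher. TTG1 reversed to -0.155 under median-ratio scaling, EGL3 to -0.067 under quantile normalization and CESA5 to -0.187 with the length trend removed, and the cause was not tested.

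Over all genes 8517 were called higher and 1412 lower. With median-ratio scaling 4389 were higher, with quantile normalization 4468, and 4351 with a mean of at least 10 RPKM, where fewer genes were tested. Calls lower numbered 4596, 3576 and, with scaling outside the 100 highest genes, 2448. Median-ratio scaling moved the median change over all genes from 0.44 (log2) to -0.029, quantile normalization to 0.030 and scaling outside the 100 highest genes to 0.24. Of the other MYB, bHLH and WD40 genes 2 instead of 1 were called lower under median-ratio scaling, with the GC trend removed and with scaling outside the 100 highest genes, and 3 under quantile normalization. Of the restraining genes 1 instead of 2 was called higher under median-ratio scaling, under quantile normalization and with a mean of at least 10 RPKM, and 2 and 1 instead of 0 were called lower under the first pair. They were 1 to 2 when a sample was left out. Of the MADS box relatives of TT16 1 instead of 0 was called lower under median-ratio scaling and with scaling outside the 100 highest genes. The pairs of regulators without overlap numbered 13 to 16 over the 8 alternatives run for them, the other pseudocounts and each sample left out.

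The labels name no source shared by same-numbered samples, so the numbers were not taken to pair the samples. Deviations of same-numbered samples from their group means correlated at 0.212, -0.190 and 0.477 for replicates 1 to 3. Those of differently numbered samples correlated at -0.510 to 0.322. With 3 samples per group these values cannot decide whether the samples were paired. With the replicate block 7 regulators were again called higher, as in the fit without it, all genes gave 8587 calls higher and 1583 lower, and MYB12 was called (adjusted p 0.00682). Depth limited TT1 and TT16 most, at 20 to 99 and 33 to 135 reads per Col-0 library.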
